A study of Mus musculus with 12 samples.

Results

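The mitochondrial ribosome makes the proteins encoded by mitochondrial DNA, which are core subunits of the respiratory chain and ATP synthase. Its RNAs come from mitochondrial DNA, but all of its proteins are encoded in the nucleus, translated in the cytosol and imported. Some of these proteins descend from bacterial ribosomal proteins, and others are found only in mitochondrial ribosomes. The members described here are all mouse genes whose symbol is Mrpl (large subunit) or Mrps (small subunit) followed by a number. In counts by subunit, Mrps18a and Mrps30 were placed in the large subunit despite their symbols. Both were counted there as found only in mitochondria, although Mrps18a is a paralogue of bacterial S18. Mrps36 was counted with neither subunit. The annotation holds 84 such symbols, of which 78 are protein coding and 6 are pseudogenes. All 78 protein-coding genes had a probe (100 probes, with 22 genes on 2 probes), and 77 were tested among 24457 genes in all. All 77 were well above background on all 12 arrays. The remaining gene, Mrpl21, was not tested because its probe was well above background on 0 of 12 arrays.

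RNA was measured in mouse embryonic stem cell lines that were wild type or Nat1-null, each grown in LIF or in 2i+LIF, with 3 arrays per group. LIF is a cytokine that sustains self-renewal of these cells, and 2i stands for inhibitors of the kinases MEK and GSK3. Nat1 is read as an earlier name of Eif4g2 (also DAP5), a translation initiation factor related to eIF4G. How the null allele was made, and whether a genotype stands for 1 clone, is not stated in the labels, nor whether replicates were separate cultures; p-values reflect only the spread between these arrays, which may be technical. Levels are log2 signals from which the array's own 75th percentile was subtracted. Levels of different probes are not comparable, so only differences between groups of the same gene are described.

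Slide 1 held the wild-type LIF arrays, slide 2 the wild-type 2i+LIF arrays and slide 3 every Nat1-null array, so genotype, and medium in wild-type cells, cannot be told apart from slide. Medium in Nat1-null cells was compared within a slide, though not within a row: LIF replicates 1 and 2 lay in row 1, while LIF replicate 3 and all 2i+LIF arrays lay in row 2. The 4 arrays of row 2 were the only ones outside the range set for negative controls (mean signals -10.2 to -16.4, against -6.45 to -9.89 on the other arrays) and had the most outlier spots (384 to 571, against 132 to 335). This sign of array quality moves with medium in Nat1-null cells, and its part in that comparison was not tested. Replicate 2 of Nat1-null LIF had the lowest estimated array weight (0.177, against 0.346 to 4.11). In each group 1 array was the lowest for most members: replicate 1 of wild-type LIF for 55 of 77, replicate 1 of wild-type 2i+LIF for 63, replicate 2 of Nat1-null LIF for 56 and replicate 2 of Nat1-null 2i+LIF for 47. Eif4g2 was between 4.09 and 4.54 in the 6 wild-type arrays and between 1.24 and 1.42 in the 6 Nat1-null arrays. The 8 embryonic stem cell markers examined, among them Pou5f1 and Nanog, were well above background on every array. Their summed level was 7.39 to 7.47 in wild-type LIF and 8.38 to 9.07 in the other groups. For 2i in wild-type cells 6 of 8 were called higher and 1 lower, and for Nat1 loss in LIF 8 of 8 were called higher. Summed fibroblast markers were at 7.65 to 7.77 in wild-type LIF, 5.22 to 5.42 in wild-type 2i+LIF, 4.03 to 4.28 in Nat1-null LIF and 4.35 to 4.62 in Nat1-null 2i+LIF. Summed trophoblast markers were at 7.32 to 7.52 in wild-type LIF and 2.07 to 2.17 in wild-type 2i+LIF. They were at 2.30 to 2.72 in Nat1-null LIF and 3.77 to 3.86 in Nat1-null 2i+LIF. Of the 4 tested, 3 were called lower and 1 higher in each comparison against wild-type LIF. All 4 were called higher for Nat1 loss in 2i+LIF and for 2i in Nat1-null cells. Summed neural markers were at 4.78 to 4.83 in wild-type LIF, 3.19 to 3.35 in wild-type 2i+LIF, 2.50 to 2.91 in Nat1-null LIF and 1.46 to 1.67 in Nat1-null 2i+LIF. Summed primitive endoderm markers were at 0.31 to 0.75 in wild-type LIF and 0.42 to 0.54 in wild-type 2i+LIF. They were higher in Nat1-null LIF (1.18 to 2.11) and at 0.65 to 1.12 in Nat1-null 2i+LIF. Single markers of this list were called in both directions. The sums of the other lists thus move with both comparisons against wild-type LIF. With Nat1 loss in LIF, the primitive endoderm sum moved the other way from the fibroblast, trophoblast and neural sums. With Nat1 loss in 2i+LIF, the primitive endoderm and trophoblast sums were higher, and the fibroblast and neural sums were lower. The part of these markers in the results below was not tested.

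Promoters of nuclear genes for mitochondrial proteins are known for sites of NRF1, of GABP (an ETS factor) and of YY1, and many are shared with a gene that starts in the opposite direction. RefSeq promoter windows of GRCm38.p6, from 250 bases before to 50 after a gene's start, were found for 68 of the 77 members. In 21 of these 68 (30.9%) the window overlapped that of a gene on the opposite strand, against 14.5% of 12238 tested genes with a window. Motifs were searched in the whole 300-base window, on both strands. The ETS motif CCGGAAG was in 35.3% of member windows and 15.7% of those of all tested genes. The YY1 motif AAGATGGCG was in 11.8% and 2.79%, and the NRF1 core GCATGCGC in 11.8% and 4.84%. The longer NRF1 motif, with GC added 5′ of that core, was in 4.41% and 1.73%. A match is a description of the letters in the window and does not show a bound site. The bases between the paired starts are given for 5 members, picked after their values were seen. In each, both genes of the pair were measured and the member changed. Further pairs that meet this rule are not printed, so these 5 do not stand for all pairs. Capitals mark matches to the searched motifs, and each run reads 5′ to 3′ on the member's strand.
Mrps7, shared with Gga3, chr11:115603917-115604139, plus strand: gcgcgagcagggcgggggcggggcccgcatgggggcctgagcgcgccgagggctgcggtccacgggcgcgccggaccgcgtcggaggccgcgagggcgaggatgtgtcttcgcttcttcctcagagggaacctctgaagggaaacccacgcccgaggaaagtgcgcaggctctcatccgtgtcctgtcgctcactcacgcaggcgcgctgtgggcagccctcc
Mrps12, shared with Sars2, chr7:28741822-28741967, minus strand: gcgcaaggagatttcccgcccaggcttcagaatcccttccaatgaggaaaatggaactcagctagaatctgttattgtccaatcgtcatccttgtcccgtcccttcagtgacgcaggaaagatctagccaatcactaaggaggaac
Mrpl46, shared with Mrps11, chr7:78783090-78783130, minus strand: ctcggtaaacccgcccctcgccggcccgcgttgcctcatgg
Mrpl49, shared with Fau, chr19:6057756-6057946, minus strand: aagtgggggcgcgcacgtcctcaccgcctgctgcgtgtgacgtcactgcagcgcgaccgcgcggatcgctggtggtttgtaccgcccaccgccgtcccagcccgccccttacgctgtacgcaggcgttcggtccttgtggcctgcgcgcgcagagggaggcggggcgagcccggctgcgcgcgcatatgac
Mrpl32, shared with Psma2, chr13:14613038-14613241, minus strand: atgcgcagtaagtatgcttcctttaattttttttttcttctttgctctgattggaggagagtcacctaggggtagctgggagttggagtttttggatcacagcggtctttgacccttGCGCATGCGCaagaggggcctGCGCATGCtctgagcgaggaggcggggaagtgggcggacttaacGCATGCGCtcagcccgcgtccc
Only the Mrpl32 stretch of these 5 holds a searched motif.

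Adding 2i to wild-type cells moved the members in both directions. Of 77 members, 30 fell and 17 rose at adjusted p below 0.05 (limma, Benjamini-Hochberg over all genes). Over all genes tested, 62.2% were called, 27.2% lower and 35.0% higher, and 61.0% of the members were called. Among the 18972 genes that, like the members, were above background on all 12 arrays, 23.6% were lower and 41.9% higher. These bright genes were not matched to the members in signal: their array medians were 0.90 to 0.99, against 4.36 to 4.61. The member median was -0.08 and that of all genes 0.06. No member changed by 2-fold or more, against 19.2% of all genes and 13.4% of those bright genes. The large subunit had 22 falls and 10 rises among 50 members, and the small subunit had 8 falls and 6 rises among 26. Without scaling between arrays, the median of all genes was at -0.50 and 72 members were called lower and 0 higher, so the rises are relative to the other genes on the array. Quantile normalization gave 43 lower and 12 higher, and normexp with quantile 43 and 11.

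The largest fall was in Mrpl20, a large-subunit protein with a bacterial homologue. Its levels were 6.62, 6.72 and 6.72 in wild-type LIF and 5.60, 5.91 and 5.75 in wild-type 2i+LIF. The groups did not overlap, and the level was 1.91-fold lower (log2 difference -0.94, SE 0.12, limma adjusted p = 6.6e-05). Mrps7, a protein of the small subunit's head, was at 5.57, 5.66 and 5.70 in LIF and at 4.69, 4.81 and 4.73 in 2i+LIF, a fall of 1.87-fold (limma adjusted p = 0.00035). Mrpl58, a peptidyl-tRNA hydrolase that is built into the large subunit, fell by 0.76 on the log2 scale. Mrps23 and Mrps26, small-subunit proteins without a bacterial homologue, fell by 0.67 each, and Mrpl43 fell by 0.65.

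Rises were smaller. Mrpl14, which lies at the interface of the subunits, was at 5.03, 5.21 and 5.26 in LIF and at 5.74, 5.80 and 5.77 in 2i+LIF. All 3 arrays in 2i+LIF were above all 3 in LIF, by 1.51-fold (limma adjusted p = 2.8e-05). Mrps12, a protein of the decoding centre, was at 4.04, 4.03 and 4.0 in LIF and at 4.54, 4.67 and 4.51 in 2i+LIF, a rise of 1.47-fold. Mrps16 rose by 0.52, Mrps10 by 0.49 and Mrpl49 by 0.38 on the log2 scale. Mrps36, now known as a component of the 2-oxoglutarate dehydrogenase complex and counted with neither subunit, rose by 0.42. Without scaling between arrays, Mrpl14 was at 0.03 (adjusted p = 0.71), and Mrps12, Mrps16, Mrps10, Mrps36 and Mrpl49 changed sign.

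**Figure D1:**
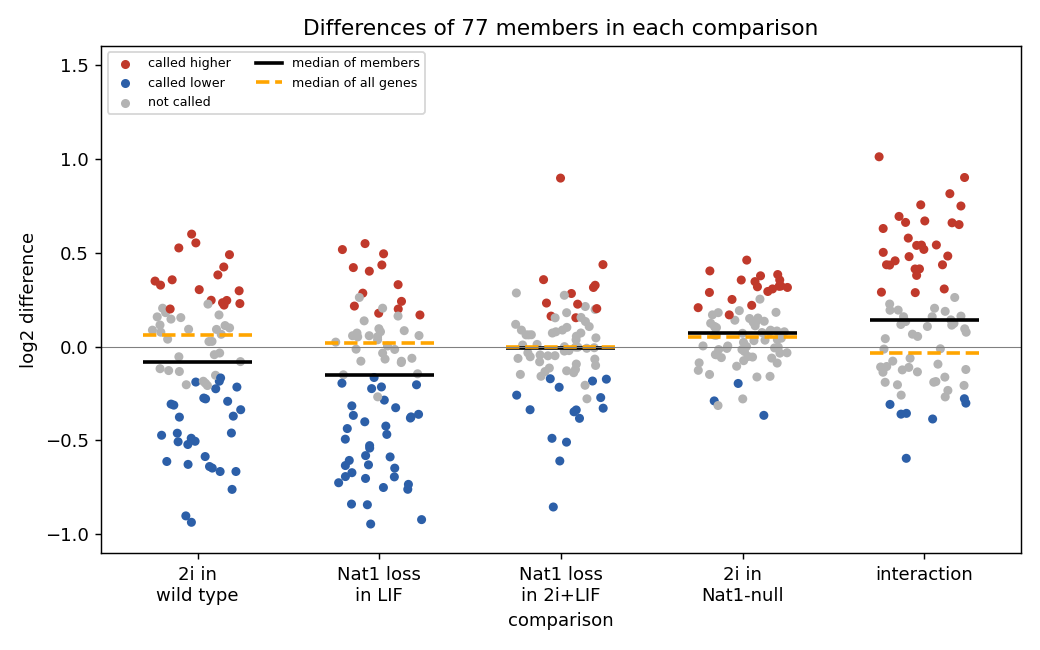
Log2 differences of the 77 members (points) in the 4 comparisons and in the interaction of genotype and medium, with the medians of the members (black) and of all 24457 genes (dashed orange). Red and blue points passed adjusted p below 0.05, and the blue points outnumber the red in 2i in wild-type cells (30 and 17) and in Nat1 loss in LIF (37 and 13).

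In LIF, Nat1-null cells had lower levels than wild-type cells for 37 of 77 members and higher levels for 13 (limma). Over all genes, 66.8% were called, 32.9% lower and 33.9% higher. Members were called in 64.9%, with 48.1% lower and 16.9% higher, and of the bright genes 28.3% were lower and 40.8% higher. The member median was -0.15 and that of all genes 0.02. No member reached 2-fold, against 26.0% of all genes and 19.6% of bright genes. Bacterial-type proteins of the large subunit had 16 falls and 4 rises among 28 members, and small-subunit proteins found only in mitochondria had 6 falls and 0 rises among 9. Without Nat1-null LIF replicate 2, 34 members were lower and 20 higher, with a median of -0.07. With no scaling, 47 were lower and 7 higher.

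Mrpl16, an interface-side protein of the large subunit, was at 4.62, 4.60 and 4.68 in wild-type LIF and at 3.79, 3.57 and 3.77 in Nat1-null LIF. The groups did not overlap, and the fall was 1.89-fold (log2 difference -0.92, SE 0.07, limma adjusted p = 2.5e-06). Mrpl23, which sits near the exit of the protein tunnel, was at 5.58, 5.61 and 5.62 in wild-type LIF and at 4.81, 4.71 and 4.76 in Nat1-null LIF, a fall of 1.79-fold (limma adjusted p = 5.9e-07). Mrpl1, the protein of the L1 stalk, was at 1.96, 1.94 and 1.95 in wild-type and at 0.96, 1.20 and 1.18 in Nat1-null cells, again with no overlap and a fall of 1.79-fold. Mrpl58 fell by 0.76 and Mrpl19 by 0.75 on the log2 scale.

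Mrps25 gave opposite answers on its 2 probes. The brighter one, used in the counts, fell by 0.94 on the log2 scale in LIF (limma adjusted p = 1.7e-06), and the dimmer one was higher by 0.38 (adjusted p = 7.4e-05 in the fit over all kept probes). The 2 probes were also called in opposite directions for 2i in wild-type cells and for Nat1 loss in 2i+LIF, so no direction is given for this gene. Mrpl39 was at -0.34 on the probe used and at 0.28 on the other for Nat1 loss in 2i+LIF, both called, so none is given for it in that comparison either. Of the 22 genes with 2 probes, both probes were called in LIF for 12, in the same direction for 11.

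The rises in LIF were led by Mrps12, at 4.71, 4.45 and 4.56 in Nat1-null cells against 4.0 to 4.04 in wild-type cells, or 1.46-fold higher (limma adjusted p = 8.6e-05). Every Nat1-null array was above every wild-type array for this gene. Mrpl49, a large-subunit protein found only in mitochondria, rose by 0.52 on the log2 scale, but its other probe was at 0.01 (adjusted p = 0.89). Mrpl50 rose by 0.49 on the probe used, and the mean of its 2 probes was at 0.16 (adjusted p = 0.075). Mrpl4 rose by 0.43, Mrpl18 by 0.42 and Mrps2 by 0.40, though the other Mrps2 probe was at 0.22 (adjusted p = 0.20).

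The 2 comparisons against wild-type LIF share those 3 arrays, so their values are given side by side and no likeness is drawn from them. Mrpl20 was at -0.94 for 2i and -0.73 for Nat1 loss, Mrps7 at -0.90 and -0.63, Mrps26 at -0.67 and -0.69 and Mrpl12 at -0.59 and -0.69, all called. The other Mrps7 probe was at -0.81 (called) and at 0.00 (adjusted p = 0.98), so the fall of Mrps7 with Nat1 loss rests on 1 of its 2 probes. Mrps12 was at 0.55 and 0.55, Mrps16 at 0.52 and 0.28 and Mrps21 at 0.20 and 0.33, all called. Of the 3 paralogues of bacterial S18, Mrps18a, which structures place in the large subunit, fell in both (-0.46 and -0.47). Mrps18b was at -0.18 and -0.15, neither called, and Mrps18c was at 0.09, not called, and at -0.17 (limma adjusted p = 0.049).

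**Figure D2:**
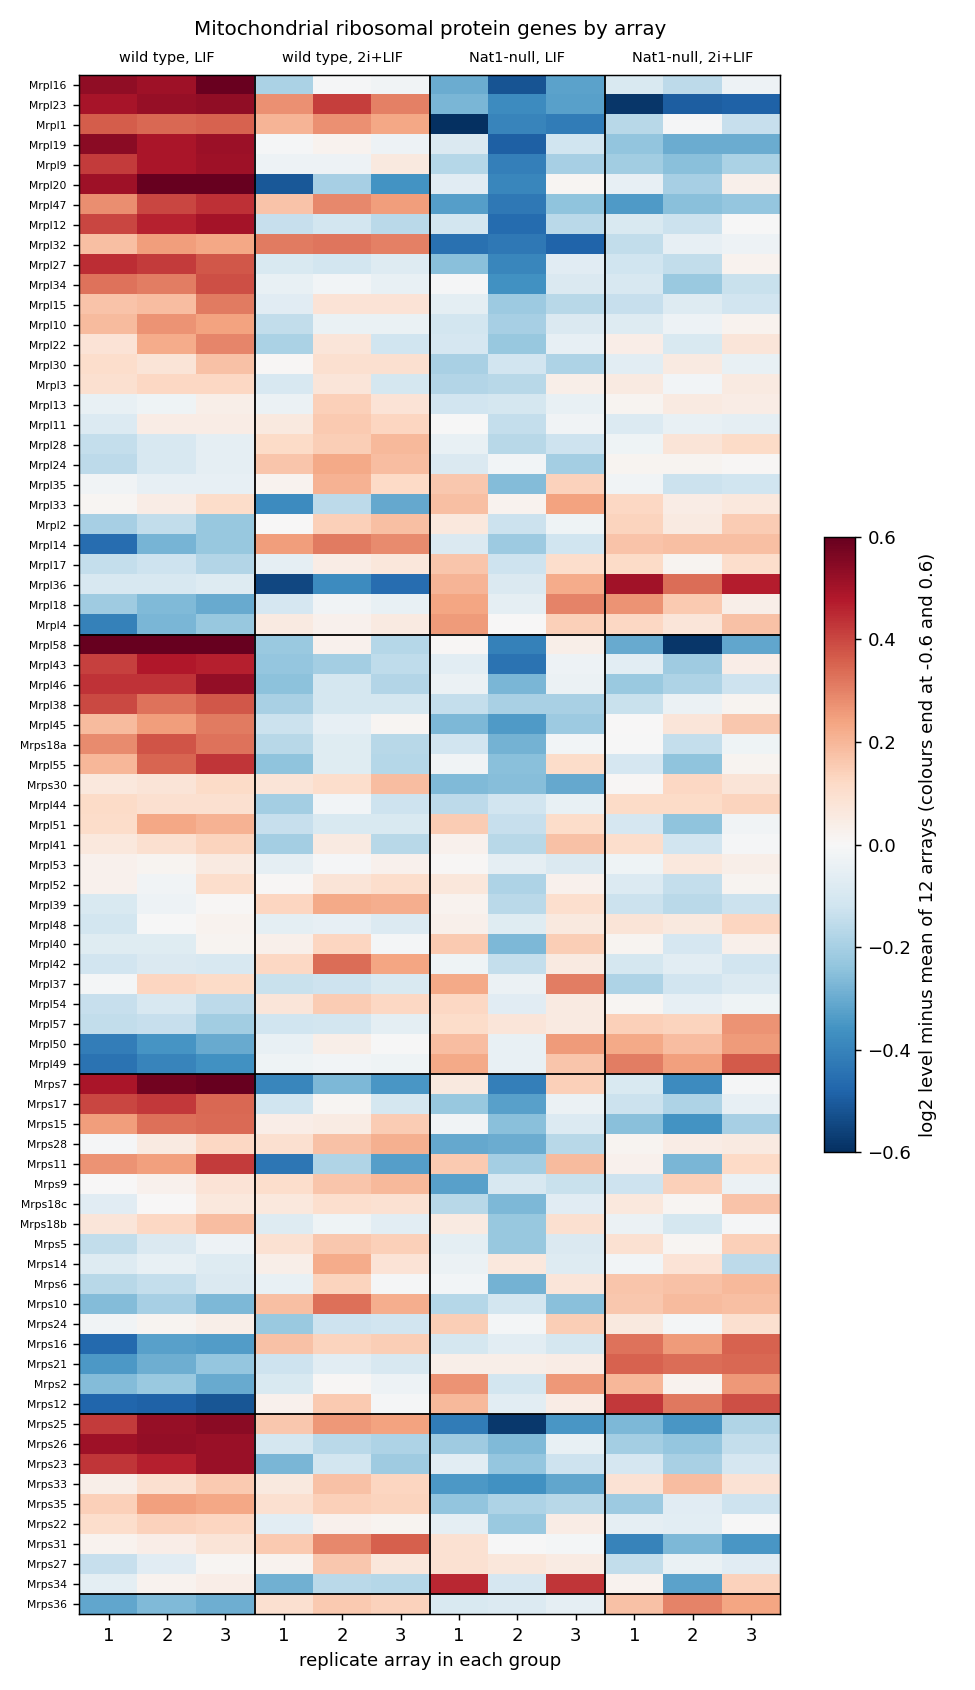
Log2 level of each of the 77 members on each of the 12 arrays, minus that gene's mean over the arrays, grouped by subunit and by presence of a bacterial homologue (horizontal lines) and ordered by the difference between Nat1-null and wild type in LIF. Members at the top of the blocks, such as Mrpl16 and Mrpl58, are red in the 3 wild-type LIF columns, and Nat1-null LIF replicate 2 is the lowest of its group for 56 of the 77 rows.

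In 2i+LIF, fewer members differed between the genotypes. Nat1-null cells had 15 members lower and 11 higher than wild-type cells (limma), 33.8% of the members, where 43.6% of all genes were called, 22.6% lower and 21% higher. Of the bright genes, 21% were lower and 25.3% higher. The medians of the members and of all genes were both at -0.01, and 0 members reached 2-fold against 10.9% of all genes and 7.36% of bright genes. Bacterial-type proteins of the large subunit had 8 falls and 2 rises, and those of the small subunit had 1 fall and 4 rises. Under no scaling the count was 41 higher and 4 lower, with the median of all genes at 0.22. Quantile normalization gave 7 higher and 21 lower, and normexp with quantile 7 and 24. Without wild-type 2i+LIF replicate 1, or Nat1-null 2i+LIF replicate 1 or 3, the count of rises was 7.

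Mrpl23 was at 5.36, 5.50 and 5.39 in wild-type 2i+LIF and at 4.50, 4.59 and 4.60 in Nat1-null 2i+LIF. The fall was 1.81-fold (log2 difference -0.85, SE 0.06, limma adjusted p = 2.9e-06), beside -0.84 in LIF, and the interaction was -0.01 (adjusted p = 0.91). Mrps31, a small-subunit protein found only in mitochondria, was at 5.23, 5.36 and 5.43 in wild-type and at 4.67, 4.80 and 4.72 in Nat1-null cells, a fall of 1.53-fold. Its levels in LIF overlapped between the genotypes. Mrpl47 fell by 0.51, Mrpl32 by 0.38 and Mrps15 by 0.35 on the log2 scale, the last 2 without a call under no scaling (adjusted p = 0.092 and 0.12).

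Mrpl36, a small zinc-binding protein of the large subunit, had the largest rise. It was at 3.85, 4.02 and 3.94 in wild-type 2i+LIF and at 4.90, 4.73 and 4.87 in Nat1-null 2i+LIF, with no overlap and 1.86-fold higher (log2 difference 0.90, SE 0.09, limma adjusted p = 3.4e-05). Mrps21 was at 4.78 to 4.84 in wild-type and at 5.24 to 5.26 in Nat1-null cells, a rise of 1.35-fold (limma adjusted p = 5e-05). Mrpl33 rose by 0.36, Mrps12 by 0.31 and Mrpl57 by 0.28. Mrpl49 was higher by 0.33 on the probe used, and the mean of its probes was at 0.12 (adjusted p = 0.17). Across both media, 6 members were called higher in Nat1-null cells (Mrpl49, Mrpl50, Mrpl57, Mrps12, Mrps16 and Mrps21) and 9 lower (Mrpl1, Mrpl9, Mrpl19, Mrpl23, Mrpl32, Mrpl47, Mrps15, Mrps25 and Mrps35), subject to the probe conflicts above for Mrpl49, Mrpl50 and Mrps25. Over all genes, 13.4% were called higher in both media and 13.8% lower. Under all 5 scalings described at the end, Mrps12 and Mrps21 were called higher in both media and Mrpl23, Mrpl47 and Mrps25 lower.

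In Nat1-null cells, 2i gave 18 rises and 3 falls among the members (limma), or 27.3% called, where 37.1% of all genes were called, 21.4% higher and 15.8% lower. Of the bright genes, 25.2% were higher and 16% lower. The member median was 0.07 and that of all genes 0.05, and 0 members reached 2-fold against 8.0% of all genes and 6.06% of bright genes. Bacterial-type proteins of the small subunit had 7 rises and 0 falls among 17. The balance depended on the scaling: it was 2 rises and 17 falls with no scaling (median of all genes -0.14), 17 and 15 under quantile normalization and 16 and 13 under normexp with quantile. Only Mrps16 and Mrps33 among the 18 rises were called under all 5 scalings run, as were all 3 falls. The count of falls was 10 without Nat1-null LIF replicate 2, with 18 rises, and 1 without Nat1-null LIF replicate 1 or Nat1-null 2i+LIF replicate 1. In row 2 of the slide alone, which leaves 1 LIF array, the member median was -0.01 and that of all genes 0.06.

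Mrps33, a small-subunit protein found only in mitochondria, was at 4.98, 4.96 and 5.01 in Nat1-null LIF and at 5.41, 5.51 and 5.41 in Nat1-null 2i+LIF. The rise was 1.38-fold (log2 difference 0.46, SE 0.06, limma adjusted p = 0.00017), with no overlap. Mrps16 was at 5.73, 5.77 and 5.73 in LIF and at 6.16, 6.09 and 6.19 in 2i+LIF, a rise of 1.32-fold (limma adjusted p = 0.00033). Mrpl1 and Mrpl32 rose by 0.38 each. Mrpl45, which anchors the ribosome to the inner membrane, rose by 0.35, as did Mrps10. With no scaling these 4 were at 0.16 to 0.19 and none was called (adjusted p between 0.081 and 0.19).

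The falls in Nat1-null cells were Mrps31, Mrpl37 and Mrpl23. Mrps31 was at 5.16, 5.07 and 5.06 in LIF and at 4.67, 4.80 and 4.72 in 2i+LIF, a fall of 1.29-fold (limma adjusted p = 0.0016). Mrpl37 fell by 0.29 (limma adjusted p = 0.023) and Mrpl23 by 0.20 (limma adjusted p = 0.021), and both calls were lost when Nat1-null LIF replicate 1 or Nat1-null 2i+LIF replicate 1 was left out, at adjusted p between 0.069 and 0.073. The call for Mrpl37 was also lost without Nat1-null LIF replicate 3 (adjusted p = 0.074). In both genotypes, 8 members were called higher with 2i, against 10.8% of all genes: Mrpl14, Mrpl28, Mrps5, Mrps10, Mrps12, Mrps16, Mrps21 and Mrps36. In opposite directions 5 were called, against 9.92% of all genes: Mrpl16, Mrpl36, Mrpl44 and Mrpl45 fell in wild-type and rose in Nat1-null cells, and Mrps31 did the reverse. None of these 13 kept both calls with no scaling, where 0 members were called higher in both genotypes.

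The interaction tests whether the 2i difference itself differed between genotypes. It was higher in Nat1-null cells for 29 members and lower for 7 (limma), or 46.8% called, where 49.7% of all genes were called, 23.6% higher and 26.2% lower. Of the bright genes, 21.6% were higher and 30.5% lower. The member median was 0.14 and that of all genes -0.03. Mrpl20 had the largest value, 1.01 (SE 0.16, adjusted p = 0.00062), being at -0.94 for 2i in wild-type and at 0.07 (not called) in Nat1-null cells. It was the 1 member to reach 2-fold, against 20.3% of all genes and 15.7% of bright genes. Mrpl16 was at -0.61 in wild-type and 0.29 in Nat1-null cells, and Mrps31 at 0.23 and -0.37. Without Nat1-null LIF replicate 2, 26 members were higher and 15 lower, and with no scaling 55 and 0 (median of all genes 0.34). The wild-type LIF arrays enter this contrast too, with the slide and marker differences given above. In none of the 4 comparisons were 10 members called, against 14.3% of all genes: Mrpl13, Mrpl35, Mrpl40, Mrpl41, Mrpl52, Mrpl53, Mrps6, Mrps14, Mrps18b and Mrps34.

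**Figure D3:**
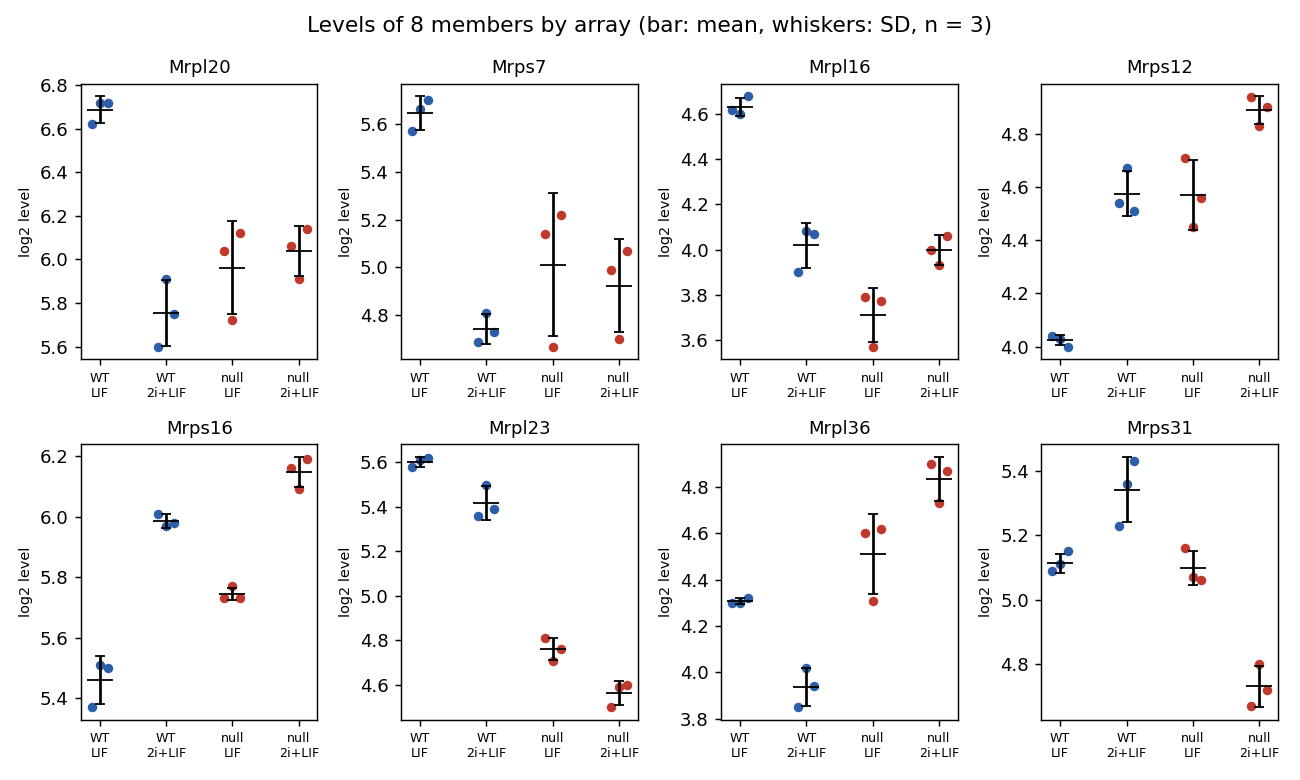
Log2 levels of 8 members on each array (points; blue wild type, red Nat1-null), with the mean and SD of each group (n = 3) and a separate axis for each gene. Mrpl20, Mrps7 and Mrpl16 are highest in wild-type LIF, Mrps12 is lowest there, Mrpl23 separates the genotypes in both media, and Mrpl36 and Mrps31 move in opposite directions with 2i in the 2 genotypes.

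The paired genes of the printed promoters can be set beside the members. Gga3, a sorting adaptor of the Golgi, was at -0.76 for 2i in wild-type cells and at -0.54 for Nat1 loss in LIF, where Mrps7 was at -0.90 and -0.63 on the probe used. Sars2, the mitochondrial seryl-tRNA synthetase, was at 0.26 and 0.44, where Mrps12 was at 0.55 and 0.55. All 8 of these values were called. Mrpl46 and Mrps11, both members, were at -0.64 and -0.63 for 2i in wild-type cells, both called, and at -0.58 (called) and -0.27 (adjusted p = 0.098) for Nat1 loss in LIF. Fau, a cytosolic ribosomal protein gene, was at 0.32 for 2i in wild-type cells and at 0.21 for Nat1 loss in LIF. Mrpl49 was at 0.38 and 0.52 on the probe used. Its other probe was at 0.27 and at 0.01 (limma adjusted p = 0.89). Psma2, a proteasome subunit, was at -0.25 for Nat1 loss in LIF and at 0.29 for 2i in Nat1-null cells, where Mrpl32 was at -0.67 and 0.38. For Nat1 loss in 2i+LIF, Psma2 was at 0.01 (limma adjusted p = 0.9), where Mrpl32 was at -0.38. Other pairs differed: Mrpl27 fell by 0.65 with Nat1 loss in LIF while Eme1, a DNA repair nuclease subunit, rose by 0.53, and Mrpl47 fell by 0.70 while Ndufb5, a complex I subunit, was at 0.09 (adjusted p = 0.24). In the same comparison Mrpl18 was at 0.42 and its paired gene Tcp1 at -0.48 (limma adjusted p = 1.6e-05). For 2i in wild-type cells Mrpl14 was at 0.60 and its paired gene Tmem63b at 0.06 (limma adjusted p = 0.58). Whether pairs moved together more often than other genes was not tested.

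Other genes of mitochondrial translation also moved both ways. Of 5 tested mitoribosomal proteins with other symbols, Dap3, a GTP-binding small-subunit protein, rose for 2i in wild-type cells (0.58) and for Nat1 loss in LIF (0.40), and Ptcd3 fell (-0.28 and -0.37). Of 22 assembly factors, 6 rose and 6 fell with 2i in wild-type cells, and 7 rose and 7 fell with Nat1 loss in LIF. With no scaling these counts were 1 and 18, and 1 and 11, and under quantile normalization 6 and 7, and 5 and 10, so the even balance depends on the scaling. The RNA-binding protein Grsf1 rose with 2i in wild-type cells (0.70) and in Nat1-null cells (1.00), and the rRNA methyltransferase Mrm3 fell with 2i in wild-type cells (-1.05). Of 15 translation factors, 4 rose and 8 fell with Nat1 loss in LIF, among them Taco1, the translational activator of COX1 (-1.17). The ribosome recycling factor Mrrf fell with 2i in wild-type (-1.38) and in Nat1-null cells (-1.27). Of 18 mitochondrial tRNA synthetases and amidotransferase subunits, 7 rose and 6 fell with Nat1 loss in LIF, where Aars2 rose by 1.33. Of 13 genes of mitochondrial DNA transcription and RNA stability, 6 rose and 3 fell in that comparison, where the elongation factor gene Tefm fell by 1.09 on the log2 scale; the counts were 4 and 6 under quantile normalization and 3 and 6 with no scaling. The tRNA synthetase counts were 6 and 6, and 5 and 7, in that order, and those of the translation factors 4 and 8, and 3 and 8. For all these lists, the shares over all genes were 33.9% higher and 32.9% lower with Nat1 loss in LIF and 35.0% and 27.2% with 2i in wild-type cells.

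Of 11 regulators of nuclear genes for mitochondria, 6 rose and 0 fell with Nat1 loss in LIF, and 5 rose and 5 fell with 2i in wild-type cells. In the first, 6 rose and 2 fell under quantile normalization and 6 rose and 3 fell with no scaling. In the second, 2 rose and 7 fell with no scaling. Over all genes in the main fit, 33.9% were higher and 32.9% lower in the first, and 35.0% and 27.2% in the second. Gabpa, the DNA-binding subunit of GABP, was at 2.03, 2.00 and 2.02 in wild-type LIF, at 2.87 to 2.91 in wild-type 2i+LIF and at 3.01 to 3.21 in the Nat1-null groups. It rose by 0.87 with 2i in wild-type cells (limma adjusted p = 9.9e-07) and by 1.12 with Nat1 loss in LIF (limma adjusted p = 9.7e-08). Yy1 rose with Nat1 loss by 0.65 in LIF and 0.61 in 2i+LIF. Nrf1 fell with 2i in Nat1-null cells (-0.48), and Myc fell with 2i in wild-type cells (-3.62).

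The nuclear genes for oxidative phosphorylation and for the cytosolic ribosome had other counts. Of 85 oxidative phosphorylation subunits, 64 were called higher and 2 lower with 2i in wild-type cells, and 40 higher and 11 lower with Nat1 loss in LIF. Those counts were 39 and 8, and 31 and 22, under quantile normalization, and 7 and 49, and 25 and 23, with no scaling, so the balance turned without scaling in the first. Of 82 cytosolic ribosomal protein genes, 63 were higher and 1 lower with 2i in wild-type cells, but 10 were higher and 14 lower under quantile normalization and 0 and 77 with no scaling, so no direction is given for them. The shift of this family in Nat1-null cells with 2i (66 higher and 2 lower) was likewise 4 and 2 under quantile normalization. Over all genes in the main fit, 35.0% were higher and 27.2% lower with 2i in wild-type cells. These shares were 33.9% and 32.9% with Nat1 loss in LIF, and 21.4% and 15.8% with 2i in Nat1-null cells. The members' calls were counted under 5 scalings (the main one, none, quantile, normexp with quantile, and the median of bright probes). For 2i in wild-type cells all 30 falls and 0 of 17 rises were called under each of the 5, and for Nat1 loss in LIF all 37 falls and 7 of 13 rises. For Nat1 loss in 2i+LIF these were 4 of 15 falls and 5 of 11 rises, for 2i in Nat1-null cells 3 of 3 and 2 of 18, and for the interaction 0 of 7 lower and 29 of 29 higher. Without scaling the median of all genes was at -0.50 and -0.14 in the first 2 of these and at 0.34 in the interaction. Calls in the direction of such a shift are kept more easily than those against it.

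**Figure D4:**
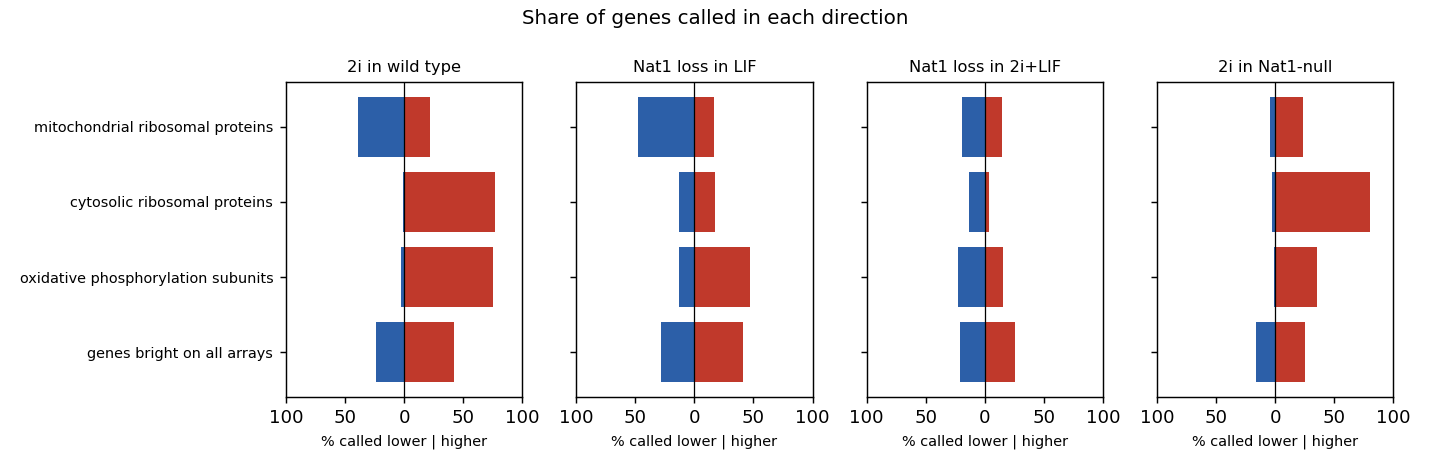
Share of genes called lower (blue, to the left) and higher (red, to the right) in the 4 comparisons, for the 77 members, 82 cytosolic ribosomal protein genes, 85 oxidative phosphorylation subunits and 18972 genes above background on all arrays. For 2i in wild-type cells 39.0% of the members were called lower against 23.6% of those bright genes. The bars depend on the scaling, among them those of the cytosolic family for 2i in both genotypes. Others are those of oxidative phosphorylation for 2i in wild-type cells, and of the members for Nat1 loss in 2i+LIF and for 2i in Nat1-null cells.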

How the data were processed

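The 12 Agilent arrays carried Cy3-labelled total RNA. Intensity values (processed, median and background signals) in the deposited scanner files come, per the file headers, from Agilent Feature Extraction 10.7.3.1. The authors' deposited table gives processed signals as log2 values relative to the 75th percentile of each array, and it correlated with the scanner values at 1 on every array; the other steps of the authors are not given in the sources used here. Control and outlier spots were dropped, replicate spots averaged, and the 75th percentile over all probes of an array was subtracted from the log2 processed signal. This percentile was first taken over the 54229 probes measured on all 12 arrays. It was redefined, after those results had been seen, to follow the written design and the deposited table; the earlier version is kept as an alternative. Of 55681 probes, 27656 were named through RefSeq accessions (GRCm38.p6), and 33286 passed the filter (above background on each array of 1 group or more). The probe with the highest mean stood for a gene. limma 3.58.1 (R 4.3.3) fitted 4 group means with 3 arrays each and tested 5 contrasts, two-sided, with Benjamini-Hochberg adjustment over 24457 genes and calls at adjusted p below 0.05. The number of arrays limits the precision. On simulated data for Nat1 loss in LIF (24457 genes), 45 of 100 genes changed by 0.5 and 72 of 100 changed by 1 on the log2 scale were recovered, with 8 false calls. The simulation gave all groups the wild-type LIF means and each gene the same spread in every group. It changed only those genes, whereas 66.8% of genes were called in the data, which makes the adjusted threshold less strict there. These figures therefore do not give the recovery or false calls of the real fit. The normexp alternative used median signals, since mean signals are not in the columns analysed. Members named are Eif4g2, the 6 largest rises and falls per comparison among called members whose groups do not overlap (4 for the interaction), the Mrps18 paralogues, members with opposite probes, the untested member, and up to 3 genes of each other list. The members and lists were chosen with earlier results of these data known. Figures used matplotlib 3.10.9, and tables used numpy 2.4.6 and pandas 2.3.3 under Python 3.11.15.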

Additional observations from a re-analysis of the deposited data

Results flagged for a closer look

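The 2i difference differed between the genotypes by a test of the interaction in limma for 36 of the 77 members: it was higher in Nat1-null cells for 29 and lower for 7. That is 46.8% of the members, beside 49.7% of all genes and 52.1% of genes above background on all arrays. The largest values were 1.01 for Mrpl20, 0.90 for Mrpl16, 0.81 for Mrps7 and 0.75 for Mrpl12 on the log2 scale. The other Mrps7 probe was at 0.35 (adjusted p = 0.085), and for 2i in Nat1-null cells it was at -0.46 (called) where the probe used was at -0.09 (not called). On the other side were Mrps31 at -0.60, Mrpl42 at -0.39, Mrpl39 at -0.36 and Mrpl4 at -0.36. With no scaling none of the 7 lower values was called, and all 29 higher ones were. That setting shifted every gene upward alike, with the median of all genes at 0.34, beside -0.03 in the main fit. The loss of the lower calls there follows this shift. Without Nat1-null LIF replicate 2 the counts were 26 and 15. The 4 groups lie on 3 slides, and the part of the slide in these values cannot be told apart from the groups.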

How the results depend on the processing

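With no scaling between arrays, the counts of members higher and lower were 0 and 72 (2i in wild type), 7 and 47 (Nat1 loss in LIF), 41 and 4 (Nat1 loss in 2i+LIF), 2 and 17 (2i in Nat1-null) and 55 and 0 (interaction), with medians of -0.647, -0.303, 0.215, -0.119 and 0.516. The difference between the member median and that of all genes could not move with this setting, because the scaling subtracts the same value from every gene of an array. Under quantile normalization, which can move it, it was -0.22 for 2i in wild type and -0.26 for Nat1 loss in LIF. In the main fit these were -0.14 and -0.17. With no scaling, the values that reversed for 2i in wild type were Mrps12 (-0.02), Mrps16 (-0.04), Mrps10 (-0.08), Mrps36 (-0.14) and Mrpl49 (-0.19). For the interaction, Mrpl39 (0.01) and Mrpl4 (0.02) reversed with no scaling. Quantile normalization gave medians of -0.173 (2i in wild type), -0.224 (Nat1 loss in LIF) and -0.004 (2i in Nat1-null), 7 members higher for Nat1 loss in 2i+LIF and 15 lower for 2i in Nat1-null. Normexp with quantile gave 11 higher for 2i in wild type, 7 higher and 24 lower for Nat1 loss in 2i+LIF, 13 lower for 2i in Nat1-null, and medians of -0.196, -0.277 and -0.016 for 2i in wild type, Nat1 loss in LIF and 2i in Nat1-null. No filter on dim probes gave 7 higher for Nat1 loss in 2i+LIF. Fitting only the groups compared gave 11 higher and 1 lower for 2i in Nat1-null. Array weights gave 20 higher for Nat1 loss in LIF, 7 lower for 2i in Nat1-null and 15 lower for the interaction. Row 2 of slide 3 alone, chosen after seeing the data, leaves 1 Nat1-null LIF array. It gave a member median of -0.014 for 2i in Nat1-null, where the median of all genes was 0.062.

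Leaving out 1 array at a time, the members higher ranged from 10 to 20 and the median from -0.212 to -0.072 for Nat1 loss in LIF, the members higher from 7 to 14 for Nat1 loss in 2i+LIF, and the members lower from 1 to 10 for 2i in Nat1-null and from 6 to 15 for the interaction; Nat1-null LIF replicate 2 gave the 20, the -0.072, the 10 and the 15. For Nat1 loss in 2i+LIF the members lower ranged from 10 to 18. The causes were not tested.

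Taking the 75th percentile over the 54229 probes on all arrays, the first definition run, gave 36 lower in place of 37 for Nat1 loss in LIF and 4 lower in place of 3 for 2i in Nat1-null. The other counts of members were equal, and all 53 values of named members kept their call and direction. With the replicate block, the counts higher and lower were 18 and 29, 12 and 37, 9 and 14, 17 and 3, and 28 and 7, in the order above. The labels do not say whether a replicate number marks the same line or culture in different groups. By residuals, 1 of 18 same-numbered pairs correlated above 0.1. That pair was replicate 2 of Nat1-null LIF and replicate 2 of Nat1-null 2i+LIF (0.301), the highest value of any pair of arrays from different groups. With so few arrays per group, low correlations cannot show that the numbers do not pair the samples. Of the 53 values of named members, 51 kept their call in each fit without 1 array, and 32 in every alternative.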
